A study of Mus musculus with 3 samples.

Results

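Acid ceramidase (Asah1) and 8 other genes of sphingolipid metabolism were followed through 3 mRNA libraries of mouse pre-osteoclasts, the mononuclear cells that fuse into bone-resorbing osteoclasts. The 9 genes were taken by symbol from a deposited table of 24067 genes, and all 9 were found there. They are Asah1, Smpd1, Galc, Hexa, Psap, Sgpl1, Cers2, Sptlc1 and Sptlc2. The set was chosen by the FPKM of Asah1 in these libraries, which was low only in the library with Ift88 shRNA, so that difference is a description, with no test. The other genes were taken as enzymes or cofactors of the same metabolism.

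The cells were primary cells from mouse bone, and every group was cultured with MCSF and RANKL for 2 days, the signals that drive osteoclast formation. A first group carried control shRNA and stayed static (genotype WT, treatment None). A further group carried control shRNA and was put under orbital shear stress for 24 hours (genotype WT), and the last carried Ift88 shRNA and had the same shear stress for 24 hours (genotype Ift88 knockdown). Orbital shear stress is fluid flow made by swirling the dish. Ift88 encodes a part of the intraflagellar transport machinery of the primary cilium. Each group had 1 library, so no difference has a replicate check and no p-value is given. A static library with Ift88 shRNA was not used here, so what the shRNA does with and without shear cannot be told apart. How many hairpins, animals or cultures stand behind a library is not given in the sources used here.

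Levels are given in FPKM, fragments scaled to the length of the transcript and to the mapped fragments of the library, so that genes can be compared per length. The depth estimated for each library lay between 35240000 and 35400000 fragments. Intervals in brackets are 95% counting intervals of a ratio of FPKM. They cover counting error only and not the spread between cultures. Ift88 itself was at 2.98 FPKM in static cells, 2.71 in sheared cells with control shRNA and 1.197 in sheared cells with Ift88 shRNA, in the direction of the label. Among lineage markers, the MCSF receptor gene Csf1r was at 248, 251 and 272 FPKM in the same order, and Acp5, the gene of tartrate-resistant acid phosphatase, at 97.7, 52.9 and 83.05 FPKM. Of the 8 B and T cell markers in the table, 6 were listed at 0 in every library, and the summed level of the 8 was at most 0.0753 FPKM.

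Sphingolipids are membrane lipids built on the amino alcohol sphingosine. Serine palmitoyltransferase starts their synthesis in the endoplasmic reticulum, ceramide synthases attach a fatty acid, and the ceramide so made becomes sphingomyelin or glycosphingolipids. In the lysosome a chain of hydrolases takes these lipids apart again to ceramide, and acid ceramidase splits ceramide into sphingosine and a fatty acid. Sphingosine can be phosphorylated to sphingosine 1-phosphate, a signal that guides osteoclast precursors between blood and bone.

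The promoters of Psap, Hexa and Smpd1 are shown because Psap and Hexa were the other lysosomal genes of the set that were lower with Ift88 shRNA, and Smpd1 was a lysosomal gene of the set whose level was nearly the same in the 3 libraries. Each is the 250 bases before the start site from RefSeq, build GRCm38.p6, 5′ to 3′ on the strand of the gene. Capitals mark GGGCGG or its reverse complement, the GC box bound by SP1-type factors, a motif chosen after the sequences were seen. Psap is at chr10:60277378-60277627 (plus strand), Hexa at chr9:59539290-59539539 (plus strand) and Smpd1 at chr7:105554110-105554359 (plus strand).
Psap: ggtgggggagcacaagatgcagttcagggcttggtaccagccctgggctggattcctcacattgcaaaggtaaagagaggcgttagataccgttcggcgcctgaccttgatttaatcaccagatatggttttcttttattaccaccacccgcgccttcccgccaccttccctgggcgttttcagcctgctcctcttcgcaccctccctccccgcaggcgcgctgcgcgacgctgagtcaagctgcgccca
Hexa: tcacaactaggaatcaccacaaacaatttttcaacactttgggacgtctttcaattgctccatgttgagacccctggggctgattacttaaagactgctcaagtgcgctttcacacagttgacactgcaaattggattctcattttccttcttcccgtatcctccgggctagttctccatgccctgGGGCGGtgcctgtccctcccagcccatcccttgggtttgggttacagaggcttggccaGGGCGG
Smpd1: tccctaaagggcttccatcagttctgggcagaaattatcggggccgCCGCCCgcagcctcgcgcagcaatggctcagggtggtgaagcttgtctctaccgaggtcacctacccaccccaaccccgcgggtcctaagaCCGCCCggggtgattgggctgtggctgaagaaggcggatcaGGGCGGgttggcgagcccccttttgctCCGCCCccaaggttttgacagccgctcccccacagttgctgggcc
The Psap window shown held no GC box, the Hexa window held 2 and the Smpd1 window 4. Another Psap window, not shown, also held none. These genes were picked by their levels, and a link of GC boxes to levels was not tested.

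Of the 9 genes, 8 matched the RefSeq promoter table, with 10 windows in all, and Asah1 had no entry. GGGCGG was found on either strand in 7 of the 10 windows, against 32.7% of all 32851 windows of the same length. This motif was chosen after the sequences were seen, so the comparison is no support for an excess. The GC content of the 10 windows ran from 41.6% to 74.8%, against a median of 52.4% over all windows. The E-box CACGTG, which reads the same on both strands and is the core of the element bound by the lysosomal regulator TFEB, was in 1 of the 10 windows and in 6.02% of all windows. That window was the upstream one of Cers2, with the motif beginning 129 bases before the start site. The longer form TCACGTG, which contains CACGTG, was in none of the 10 windows on either strand and in 3.13% of all windows.

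The 9 genes covered a wide range of levels, from 21.9 FPKM for Smpd1 to 9275 FPKM for Psap in the static library. Their order was the same in the 3 libraries: Psap, Hexa, Sgpl1, Cers2, Asah1, Galc, Sptlc2, Sptlc1 and Smpd1. Between neighbours in that order the ranges over the 3 libraries did not overlap, apart from Sptlc1 (lowest 22.6 FPKM) and Smpd1 (highest 22.7 FPKM). Psap alone made up 1.73% of the summed FPKM of the static library, 1.71% of the sheared control library and 1.483% of the library with Ift88 shRNA. In that last library Asah1 stood at the 90.4 percentile of the 10358 genes with a mean of at least 1 FPKM, against 94.4 and 94.5 in the static and sheared control libraries.

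**Figure D1:**
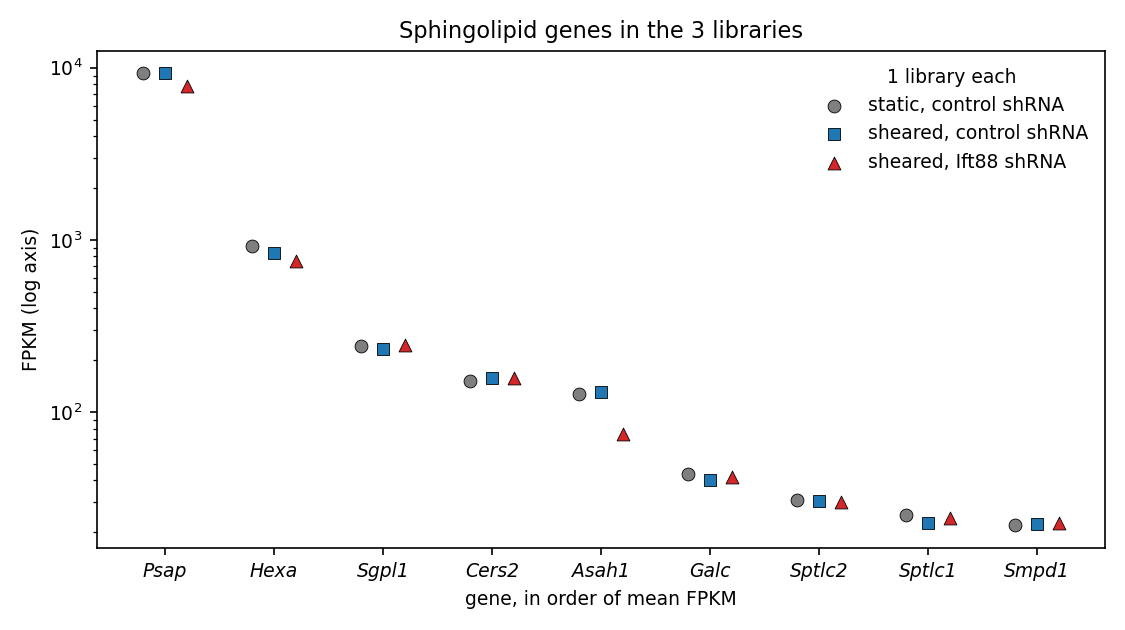
FPKM (log axis) of the 9 genes in order of mean level, with 1 point for each library and no error bars because each group had 1 library. Asah1 is at 126 and 130 FPKM in the control shRNA libraries and at 74.1 FPKM with Ift88 shRNA, still between Cers2 and Galc.

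Asah1 (gene ID 11886) lies on chromosome 8 at 41340197 to 41374773, minus strand, in GRCm38. The transcript counted has 14 exons and 2773 bases. Asah1 was at 126 FPKM in static cells, 130 in sheared cells with control shRNA and 74.1 in sheared cells with Ift88 shRNA. The libraries with control shRNA were close to each other and the library with Ift88 shRNA was well below them. Its ratio was 1.03 for sheared over static cells (1.003 to 1.06), 0.570 for Ift88 over control shRNA under shear (0.553 to 0.587), and 0.586 for sheared cells with Ift88 shRNA over static cells (0.569 to 0.604). These comparisons share libraries and are not separate evidence. The values rest on an estimated 11409, 11855 and 6746 fragments. In a bulk library, fewer cells with the transcript and less of it per cell cannot be told apart.

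On the scale of log2 (FPKM + 1), used from here on to count genes, Asah1 had a ratio of -0.80 for Ift88 over control shRNA, the 11th lowest of 10358 genes. The nearest gene on one side with a mean of at least 1 FPKM was Pcm1, which encodes a centriolar satellite protein. Pcm1 ends 7853 bases away and was at 5.52, 5.09 and 5.28 FPKM. The nearest such gene on the other side, Frg1, has its nearer end, the 3′ end, 22686 bases away. Frg1 was at 31.6, 30.9 and 30.9 FPKM. Their ratios for Ift88 over control shRNA were 1.04 for Pcm1 (0.955 to 1.125) and 1.002 for Frg1 (0.913 to 1.098), and both intervals include no difference.

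Asah1 was the 1 of the 9 genes whose levels differed by at least 1.2-fold between sheared libraries with Ift88 and control shRNA. The set was chosen by this difference of Asah1, so its count was fixed beforehand. The other 8 genes were all within 1.2-fold. Of all 10358 genes, 5.54% differed by that much in either direction, 3.25% higher and 2.29% lower. In the comparison of sheared with static cells, 0 of the 9 passed 1.2-fold, where 4.2% of all genes did (1.94% higher and 2.26% lower). Between sheared cells with Ift88 shRNA and static cells, 2 of the 9 did, both lower. These were Asah1, by which the set was chosen, and Hexa. Of all genes, 9.27% passed there in either direction, 4.79% higher and 4.48% lower. The median log2 ratio of the 9 genes was -0.016 for shear, 0.0088 for Ift88 over control shRNA under shear and -0.045 for sheared Ift88 shRNA over static cells. Over all genes these medians were -0.011, 0.010 and -0.00030.

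**Figure D2:**
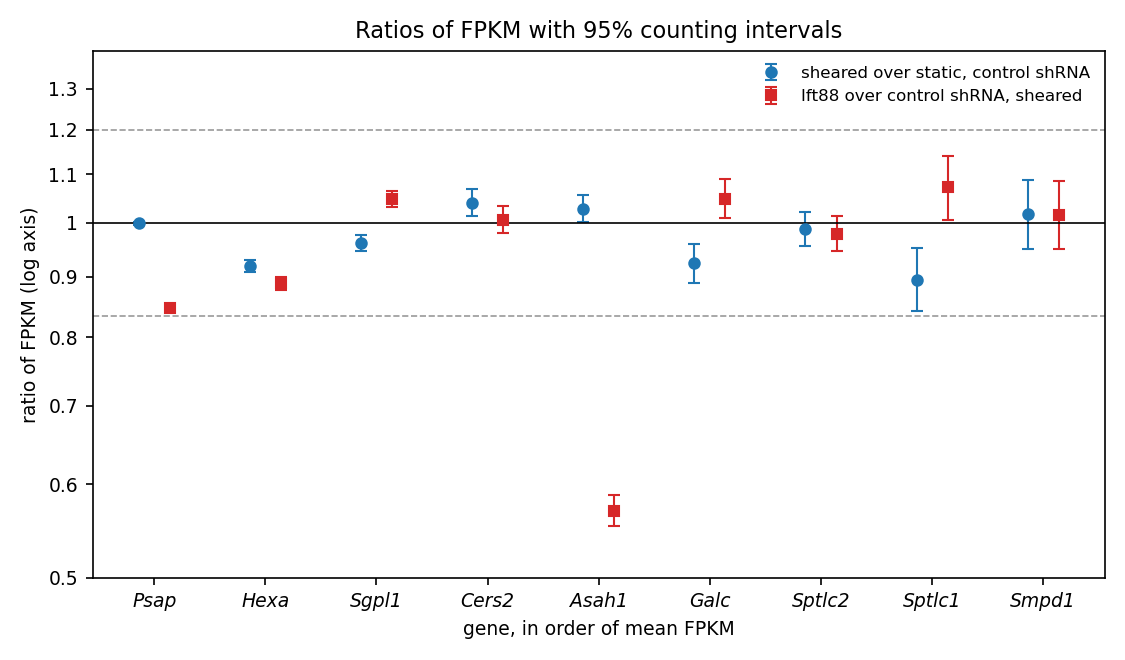
Ratio of FPKM (log axis) of each gene for sheared over static cells with control shRNA and for Ift88 over control shRNA under shear, with bars for 95% counting intervals and dashed lines at 1.2-fold in each direction. Asah1 at 0.570 is the point below the lower line, and Psap at 0.848 and Hexa at 0.889 lie between that line and 1.

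After Asah1, Psap and Hexa differed most between the libraries with Ift88 and control shRNA. Psap (gene ID 19156, chromosome 10, 60277627 to 60302597, plus strand) encodes prosaposin, the precursor of the saposins. Saposins present lipids to lysosomal hydrolases, and saposin D assists acid ceramidase. Psap was at 9275 FPKM in static cells, 9271 in sheared cells with control shRNA and 7858 with Ift88 shRNA. The control shRNA libraries had almost the same level (ratio 0.9995, 0.996 to 1.003) and the library with Ift88 shRNA was lower, with a ratio of 0.848 to the sheared control (0.845 to 0.850). The table gives Psap 6 RefSeq transcripts, so a shift among them could move its FPKM as well.

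Hexa (gene ID 15211, chromosome 9, 59539540 to 59565109, plus strand) encodes the alpha subunit of beta-hexosaminidase, which degrades the ganglioside GM2. It was at 917 FPKM in static cells, 843 in sheared cells with control shRNA and 749 with Ift88 shRNA, highest in the static library and lowest with Ift88 shRNA. The ratios were 0.920 for shear (0.909 to 0.931), 0.889 for Ift88 over control shRNA (0.878 to 0.8997) and 0.817 for sheared Ift88 shRNA over static cells (0.807 to 0.827). Gm2a, the gene of the GM2 activator protein, which presents GM2 to the enzyme, was at 77.2, 75.04 and 79.2 FPKM in the same order and passed 1.2-fold in none of the comparisons.

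Smpd1 and Galc, whose enzymes release ceramide in the lysosome from sphingomyelin and from galactosylceramide, varied less between the libraries than Psap and Hexa. Smpd1 (gene ID 20597, chromosome 7, 105554360 to 105558389, plus strand), the acid sphingomyelinase gene, was at 21.9, 22.3 and 22.7 FPKM in static, sheared control and sheared Ift88 shRNA cells. Its ratio for Ift88 over control shRNA was 1.02 (0.951 to 1.09). Galc (gene ID 14420, chromosome 12, 98202294 to 98259459, minus strand), the galactosylceramidase gene, was at 43.3, 40.07 and 42.03 FPKM in that order. Its ratios were 0.925 for shear (0.890 to 0.961) and 1.05 for Ift88 over control shRNA (1.01 to 1.09), so the sheared control library was the lowest.

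Of the genes of ceramide synthesis, Sptlc1 had the largest difference of the 9 genes between sheared and static cells, and Sptlc2 and Cers2 varied less. Sptlc1 (gene ID 268656, chromosome 13, 53332748 to 53377397, minus strand) and Sptlc2 (gene ID 20773, chromosome 12, 87305058 to 87388355, minus strand) encode subunits of serine palmitoyltransferase. Sptlc1 was at 25.2 FPKM in static cells, 22.6 in sheared cells with control shRNA and 24.2 with Ift88 shRNA. Sptlc2 was at 30.8, 30.5 and 29.9 FPKM, above Sptlc1 in each library. The ratio of Sptlc1 for sheared over static cells was 0.895 (0.842 to 0.953), and that for Ift88 over control shRNA was 1.07 (1.01 to 1.14). Cers2 (gene ID 76893, chromosome 3, 95314791 to 95323599, plus strand), the ceramide synthase gene for very long acyl chains, was at 151, 157 and 158 FPKM, with a ratio of 1.01 for Ift88 over control shRNA (0.980 to 1.03).

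Sgpl1 (gene ID 20397, chromosome 10, 61098642 to 61147703, minus strand) encodes sphingosine 1-phosphate lyase, which ends the pathway by cleaving sphingosine 1-phosphate. It was at 242 FPKM in static cells, 232 in sheared cells with control shRNA and 243 with Ift88 shRNA. The ratio was 0.961 for shear (0.946 to 0.976) and 1.05 for Ift88 over control shRNA (1.03 to 1.06). Its static level and its level with Ift88 shRNA were nearly equal. Sgpl1 and Psap are on the same chromosome, as are Sptlc2 and Galc. The highest of the 3 libraries was 1.75 times the lowest for Asah1, 1.22 times for Hexa and 1.18 times for Psap, and between 1.03 and 1.117 times for the other 6 genes.

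The wider pathway was described by 7 lists of 75 symbols by role, of which 74 genes were found (Col4a3bp and Cert1 are names of 1 gene) and 56 had a mean of at least 1 FPKM. The 18 below that level included the ceramide synthase genes Cers1 and Cers3, and Sptlc3 and Ugt8a were listed at 0 throughout. With the 9 genes left out, 47 of the 65 found passed this filter. For sheared over static cells 0 of the 47 passed 1.2-fold (29 below and 18 above 1, median log2 ratio -0.034). For Ift88 over control shRNA under shear, 2 were higher, 0 were lower and 45 were within 1.2-fold (median -0.015), a share of 4.26% against 5.54% of all genes. For sheared Ift88 shRNA over static cells, 5 were higher and 2 lower (median -0.036), a share of 14.9% against 9.27% of all genes. Sphk1 was among the 2 higher genes of the former comparison and the 5 of the latter. It passed the filter only through the library where it was high, so neither share is support for a difference.

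**Figure D3:**
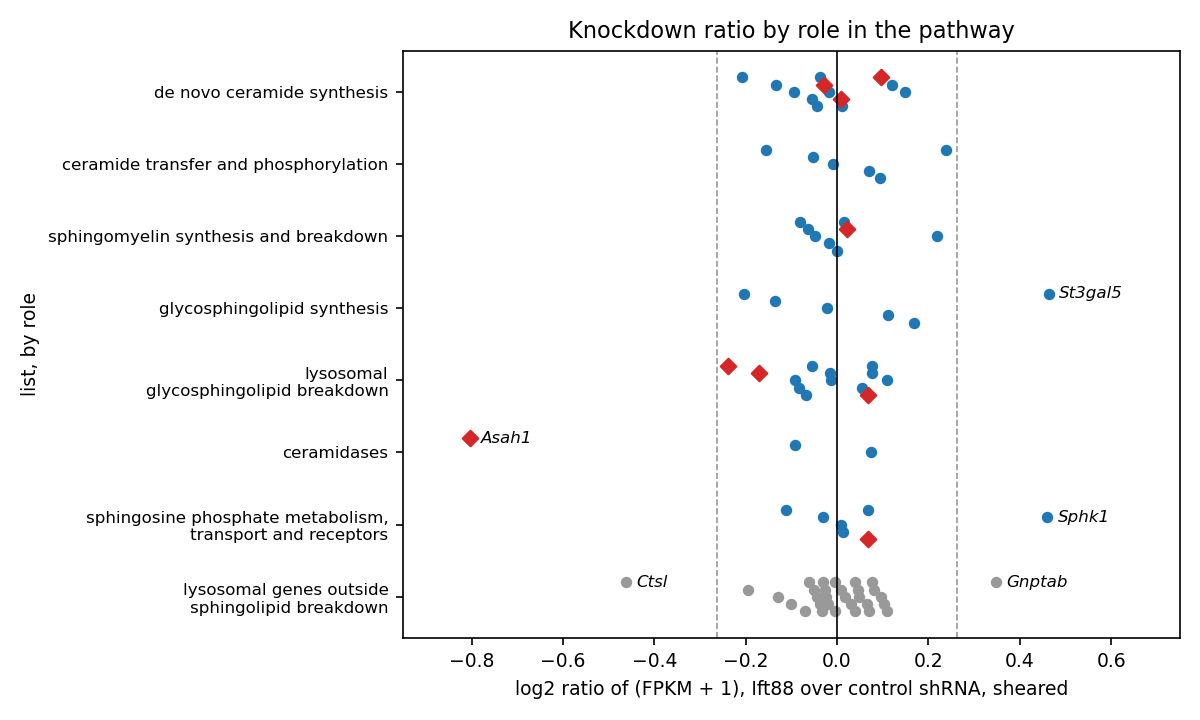
log2 ratio of (FPKM + 1) for Ift88 over control shRNA in sheared cells, 1 point per gene with a mean of at least 1 FPKM, in 7 lists of the sphingolipid pathway by role and 1 list of other lysosomal genes. The list of other lysosomal genes also holds genes of lysosomal regulation and enzyme sorting. Diamonds are the 9 genes, points are other genes, and dashed lines mark 1.2-fold. Asah1 (-0.80), St3gal5 (0.46), Sphk1 (0.46), Ctsl (-0.46) and Gnptab (0.35) lie outside the lines.

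Among the other ceramidase genes, the alkaline ceramidase gene Acer3 was at 14.2 FPKM in static cells, 12.8 in sheared cells with control shRNA and 11.98 with Ift88 shRNA. The neutral ceramidase gene Asah2 was at 2.72, 2.38 and 2.56 FPKM. Both were far below Asah1 in every library, and neither passed 1.2-fold in any comparison. Acer1 and Acer2 were below a mean of 1 FPKM.

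The 2 pathway genes counted as higher with Ift88 shRNA than with control shRNA were Sphk1 and St3gal5. Sphk1, the gene of sphingosine kinase 1, which makes sphingosine 1-phosphate, was at 0.932 FPKM in static cells, 0.753 in sheared cells with control shRNA and 1.41 with Ift88 shRNA (ratio 1.88 to the sheared control, 1.37 to 2.56). It was below 1 FPKM in both control shRNA libraries and passed the filter, with a mean of 1.03 FPKM, only through the library where it was high, so its count is no support for a difference. The more abundant kinase gene Sphk2 was at 32.8, 34.3 and 33.6 FPKM. St3gal5, the gene of the synthase of the ganglioside GM3, was at 13.5, 13.2 and 18.5 FPKM, with a ratio of 1.41 (1.299 to 1.52).

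Other genes of glycolipid and sphingomyelin handling passed 1.2-fold on the log2 (FPKM + 1) scale when sheared cells with Ift88 shRNA were set against static cells, and in neither of the other comparisons on that scale. B4galt5 and B4galt6, whose enzymes make lactosylceramide, were at 49.2, 42.3 and 38.4 FPKM and at 22.4, 19.8 and 17.07 FPKM, highest in the static library and lowest with Ift88 shRNA. Smpdl3b, a sphingomyelin phosphodiesterase-like gene, was at 1.76, 2.11 and 2.62 FPKM. Cptp, listed as Gltpd1 in the table, encodes a ceramide 1-phosphate transfer protein and was at 5.78, 6.15 and 7.44 FPKM. As plain ratios of FPKM, Smpdl3b (1.24, 0.990 to 1.58) and Cptp (1.21, 1.08 to 1.36) exceeded 1.2 for Ift88 over control shRNA as well, and with a pseudocount of 0.1 FPKM 4 pathway genes were higher in place of 2.

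A list of lysosomal genes outside sphingolipid breakdown was set beside these. It also held genes of lysosomal regulation and of the tagging and sorting of lysosomal enzymes. All 31 on that list had a mean of at least 1 FPKM, and for Ift88 over control shRNA 1 was lower, 1 was higher and 29 were within 1.2-fold (median log2 ratio -0.0040), a share of 6.45% past 1.2-fold, near the 5.54% of all genes. The lower one was Ctsl, the gene of the protease cathepsin L, at 3310 FPKM in static cells, 3313 in sheared cells with control shRNA and 2406 with Ift88 shRNA (ratio 0.726, 0.721 to 0.731). Like Psap, it had nearly the same level in the libraries with control shRNA. The higher one was Gnptab, needed for the mannose 6-phosphate tag of lysosomal enzymes, at 29.0, 27.9 and 35.7 FPKM. Tfeb, the gene of a transcription factor of lysosomal genes, was at 30.6, 32.4 and 32.4 FPKM, and Lamp2, a membrane protein gene of lysosomes, at 272, 275 and 277 FPKM.

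The genes most like Asah1 were sought among 5371 other genes with a mean of at least 10 FPKM and a transcript of at least 500 bases. Likeness was the distance between the pairs of log2 ratios for shear and for Ift88 over control shRNA, over 3 libraries. The nearest was Tma7, a translation machinery associated gene, at 132, 138 and 80.9 FPKM (distance 0.046). Rpl30, a ribosomal protein gene (0.10), Bex1 (0.12), Slamf7, a SLAM family receptor gene (0.13), Cpped1 (0.16) and Scly, the selenocysteine lyase gene (0.23), followed. Slamf7 was at 15.8, 14.8 and 7.97 FPKM. Genes of ribosomal proteins have many near-identical processed copies, so the value of Rpl30 is uncertain.

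**Figure D4:**
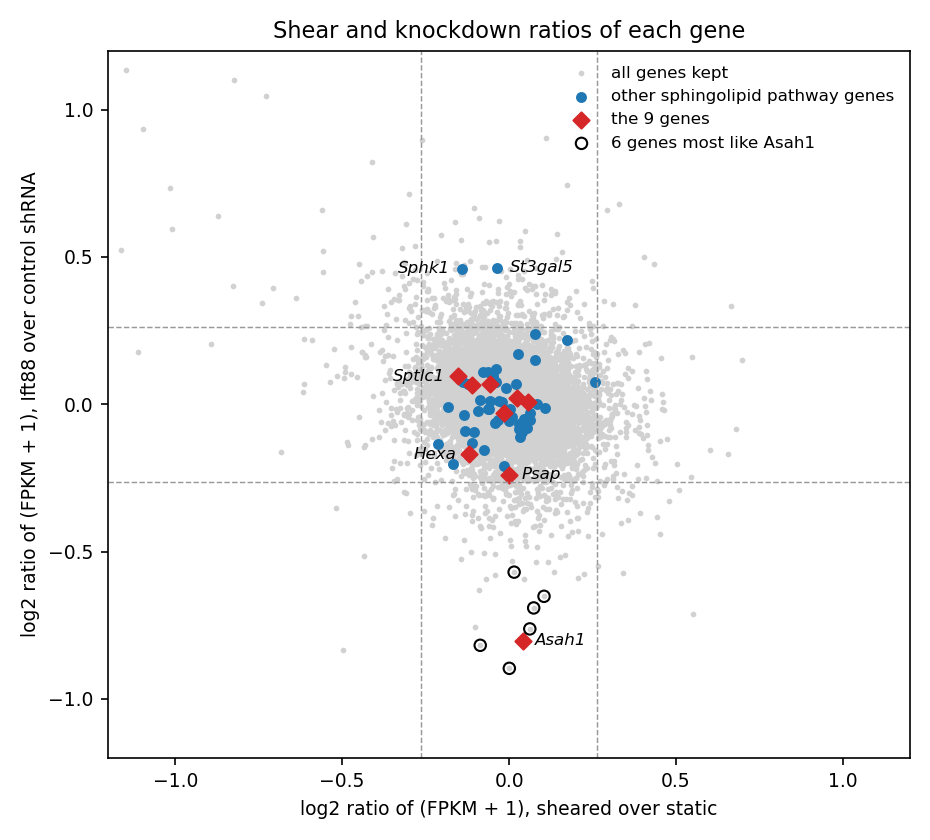
log2 ratio of (FPKM + 1) for sheared over static cells (horizontal axis) and for Ift88 over control shRNA under shear (vertical axis) of the genes with a mean of at least 1 FPKM. The axes share the sheared control library, dashed lines mark 1.2-fold, and 27 genes beyond 1.2 on either axis are not drawn. Asah1 is at 0.041 and -0.80, and the other 8 genes lie inside the dashed lines on both axes.

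Cell type markers, both of the cells' own osteoclast and monocyte lineage and of other cells, differed between the same libraries. The summed level of 9 neutrophil markers was 70.2 FPKM in the static library, 35.8 in the sheared control library and 37.9 with Ift88 shRNA. In the static library its largest parts were S100a8 at 24.2, S100a9 at 22.3 and Csf3r at 15.6 FPKM. Mpo and Elane were at 0.0605 and 0.118 FPKM there. The summed level of 12 stromal and osteoblast markers was 11.8, 9.52 and 11.7 FPKM, and that of 11 osteoclast lineage markers 693, 590 and 685 FPKM. For sheared over static cells, 1 of the 9 osteoclast lineage markers that passed the filter was higher and 4 were lower. Lower too were 2 of 8 monocyte and macrophage, 3 of 4 neutrophil, 3 of 5 stromal and 2 of 4 dendritic markers, with 0 higher. Of all genes, 1.94% were higher and 2.26% lower. For Ift88 over control shRNA, 5 of the 9 osteoclast lineage markers were higher. So were 2 of the 4 neutrophil, 3 of 5 stromal and 1 of 4 dendritic markers. In each of these types 0 were lower, and 0 of the 8 monocyte and macrophage markers passed 1.2-fold. Of all genes, 3.25% were higher and 2.29% lower. The 2 neutrophil markers were S100a9 (6.66 and 8.38 FPKM, interval of the ratio 0.930 to 1.74) and Ngp (1.01 and 1.45 FPKM, 0.911 to 2.22). Both intervals include no difference. The part of neutrophils and stromal cells in the differences of Asah1, Psap and Hexa was not tested.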

How the data were processed

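FPKM values were used as deposited by the authors in 1 table, with 1 column per library. Per the submitters' processing notes, the tools were Cufflinks 2.2.1, TopHat2 2.0.13, Trimmomatic 0.32 and bcl2fastq 1.8.4, with build mm10. Their settings and whether strand was used are not stated. Some items that the rule below would name are not reported here. An abundant gene that differs shifts the FPKM of all others.

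Genes with a mean of at least 1 FPKM (10358) were kept. Differences were computed as log2 ratios of (FPKM + 1), which understates those of low genes, and counted past 1.2-fold. The step that 1 fragment adds to a low FPKM gave the depth, from genes with 1 transcript of at least 1000 bases. Of the low values, 62.5% to 63.1% were whole fragments within 0.1. Counting intervals (95%, Clopper-Pearson) use these estimates, and the functions were tested on simulated data. Coordinates and lengths come from GENCODE M21 (GRCm38). Python 3.11.15, pandas 2.3.3 and SciPy 1.17.1 were used.

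The genes, lists and rules were chosen with earlier results of these data known. Named were Ift88, the 9 genes, up to 8 pathway genes past 1.2-fold per comparison and the 6 genes most like Asah1. The nearest kept neighbours of Asah1 on its chromosome and defining cell type markers were also named. Genes named outside this rule (Gm2a, Acer1, Acer2, Acer3, Asah2, Cers1, Cers3, Sptlc3, Ugt8a, Col4a3bp, Sphk2, Ctsl, Gnptab, Tfeb, Lamp2, S100a8, S100a9, Csf3r, Ngp, Mpo, Elane) were chosen after their values were seen. Alternatives varied the pseudocount, filter, scaling and fold.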

Additional observations from a re-analysis of the deposited data

How the results depend on the processing

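The log2 ratio of Asah1 stayed within its counting interval under the 5 alternatives that can move it (pseudocounts and scalings), in each comparison, between -0.81 and -0.77 for Ift88 over control shRNA under shear. Over the 9 genes, 14 ratios left their counting intervals and 229 did not. The 14 were of Psap, Hexa, Sgpl1 and Sptlc2, under changes of scaling. With libraries scaled to an equal sum of FPKM, Psap had -0.206 for Ift88 over control shRNA (-0.239 before). Hexa had -0.138 (-0.170 before) and Sgpl1 0.0998 (0.0675 before). The narrow intervals of these genes do not cover the choice of scaling. No ratio past 1.2-fold of the 9 genes changed sign. Some log2 ratios of smaller size did, those of Psap and Sptlc2 for shear and of Cers2 and Sptlc2 for Ift88 over control shRNA. Of the 9 genes, 1 (Asah1, by which the set was chosen) passed 1.2-fold for Ift88 over control shRNA and 0 passed 2-fold. For sheared Ift88 shRNA over static cells 2 (Asah1 and Hexa) passed 1.2-fold, 1 (Asah1) passed 1.5-fold and 0 passed 2-fold.

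Counts of other pathway genes and of all genes moved with the settings. For shear, 0 other pathway genes passed in either direction; with a pseudocount of 0.1 FPKM 1 was higher and 1 lower, and with centring on the median 1 was higher. For all genes the shear count was 435, with 771 at a pseudocount of 0.1, 145 at 5, 222 with a mean of at least 5 FPKM, 47 at 1.5-fold and 29 at 2-fold. For Ift88 over control shRNA the higher pathway genes were 2, with 4 at a pseudocount of 0.1, 1 at 5, 1 with a mean of at least 5 FPKM and 0 at 1.5-fold or 2-fold. The count of all genes was 574, with 940, 184, 312, 50 and 15 under these settings in turn. For sheared Ift88 shRNA over static cells the higher pathway genes were 5, with 2 at a pseudocount of 5, 3 with a mean of at least 5 FPKM and 0 at 1.5-fold or 2-fold; the lower were 2, with 4 at a pseudocount of 0.1 and 0 at 1.5-fold or 2-fold. The count of all genes was 960, with 1386 at a pseudocount of 0.1, 361 at 5, 608 with a mean of at least 5 FPKM, 77 at 1.5-fold and 22 at 2-fold. The cause was not tested beyond what each setting does by construction. No paired analysis was possible because each group had 1 library. Depth limits the genes of low level, with an interval of 1.37 to 2.56 for the ratio of Sphk1.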
